A study of Mus musculus with 2 samples.

Results

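The collagen genes of a mouse pancreatic tumor were read here cell class by cell class. They are the 44 genes of the 19059 in the matrix whose symbol is Col, a number, the letter a and a number. They comprise 11 fibrillar collagens, 6 chains of the basement membrane network, 3 of hexagonal networks, 9 fibril-associated collagens (FACITs), 6 beaded-filament chains, Col7a1 of the anchoring fibrils, 2 multiplexins, 4 transmembrane collagens and 2 others (Col26a1 and Col28a1). Of the 44, 26 reached 20 CPM (the UMIs of a gene scaled to the summed UMIs of the class) in at least 1 cell class of 100 or more cells per library, 28 did so when classes of 40 cells were let in, and 16 did not. None was without a UMI (a unique molecular identifier, the count of 1 captured probe product) in both libraries.

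The study profiled orthotopic KPC tumors, a mouse model of pancreatic cancer grown in the pancreas; the line used is not given in the sources used here. The mice had received either DMSO, the vehicle, or 10 mg/kg of EIPA, which blocks macropinocytosis (the engulfing of extracellular fluid by cells). Each of the 2 samples pooled 4 tumors, and cells were fixed and read with gene-specific probes. The barcodes carry a library number, 1 or 2, that no label ties to DMSO or EIPA, so values are given for library 1 and then library 2, and every ratio divides library 2 by library 1, a choice of order with no treatment direction. With 1 library per treatment and cells that are not replicates, nothing here was tested across animals. Poisson and binomial 95% intervals cover counting error only.

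Library 1 held 12337 barcodes and 203459556 UMIs, library 2 held 11945 and 185474400, and 225 barcode sequences occurred in both. After filters and doublet removal 11115 and 10785 cells were clustered with all collagens left out, so that no collagen helped to form or name a class. Classes were named from marker genes, and each name stands for cells like that type. The fibroblast class held 360 and 449 cells, pericytes 59 and 46, blood endothelial cells 158 and 131, macrophages 793 and 787, dendritic cells 82 and 244, neutrophils 139 and 163, T cells 119 and 336 and epithelial tumor cells 4281 and 3376. The clusters that the naming rule left unnamed comprised 5108 and 5244 cells. In these cells the epithelial keratin Krt8 stood at 1567 and 2324 CPM. The epithelial gene Epcam stood at 35.6 and 27.7 CPM, against 55.8 and 33.0 CPM in fibroblasts and 498 and 430 CPM in epithelial tumor cells. Relative to epithelial tumor and unnamed cells pooled, the 14 epithelial markers stood at a median of 46.3% and 50.8% in unnamed cells. That median was 53.7% and 51.5% in T cells and 162% and 181% in epithelial tumor cells. Whether the unnamed cells are tumor cells was not tested. Cluster 16 among the unnamed clusters (215 and 266 cells) passed 10 markers of a class. It stayed unnamed for its low depth with no marker among its 10 leading genes. Another cluster, of 1 cell, was too small to name, and the other unnamed clusters did not pass enough markers. Fibroblasts carried their defining genes Pdgfra (175 and 155 CPM) and Dcn (536 and 433 CPM) and little of the leukocyte gene Ptprc (11.9 and 18.3 CPM) or the endothelial gene Pecam1 (10.3 and 13.8 CPM). Their Krt8 level was 502 and 849 CPM. The 14 epithelial markers stood in fibroblasts at a median of 24.5% and 27.0% of their level in the same pool of epithelial tumor and unnamed cells. The part of tumor-cell RNA in fibroblast values, such as those of Col7a1, Col18a1 and Col27a1, was not tested.

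Collagens are triple-helical proteins of the extracellular matrix. Types I, III and V assemble into the fibrils that stiffen the desmoplastic stroma of pancreatic cancer, FACITs and type VI decorate those fibrils or link them to cells, and type IV forms the sheet beneath epithelia and around vessels. Fibroblasts and the related mural cells of vessels are the usual sources of interstitial collagen, and endothelial cells and pericytes build the vascular basement membrane together. Because each gene is read by its own probes and no length scale applies, levels of different genes are not compared below, only 1 gene across classes, or the share of 1 chain in a pair across classes.

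The stretches that precede the gene starts of 5 collagens are shown for where they stood high in the cells. Col3a1 stood highest in fibroblasts and Col13a1 in endothelial cells. Col4a6 and Col24a1 stood highest in 1 fibroblast sub-cluster. Col7a1 stood high in fibroblasts and in part of the unnamed clusters. Each is 250 bases long, ends at the base before the start, and is written 5′ to 3′ on the gene's strand, from RefSeq (GRCm38.p6). None overlaps an annotated exon of GENCODE vM21. The positions are chr1:45311288-45311537 on the plus strand for Col3a1, chr10:61979109-61979358 on the minus strand for Col13a1, chrX:141474077-141474326 on the minus strand for Col4a6, chr3:145292222-145292471 on the plus strand for Col24a1 and chr9:108953336-108953585 on the plus strand for Col7a1. Capitals mark the TATA box letters TATAAA, the CCAAT box letters CCAAT and the GC box letters GGGCGG, searched on both strands, and no match overlaps another.
Col3a1: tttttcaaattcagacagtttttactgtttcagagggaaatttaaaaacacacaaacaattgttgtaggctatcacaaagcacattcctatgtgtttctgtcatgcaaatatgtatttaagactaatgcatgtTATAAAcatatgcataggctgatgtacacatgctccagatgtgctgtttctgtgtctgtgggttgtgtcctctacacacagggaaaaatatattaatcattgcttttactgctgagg
Col13a1: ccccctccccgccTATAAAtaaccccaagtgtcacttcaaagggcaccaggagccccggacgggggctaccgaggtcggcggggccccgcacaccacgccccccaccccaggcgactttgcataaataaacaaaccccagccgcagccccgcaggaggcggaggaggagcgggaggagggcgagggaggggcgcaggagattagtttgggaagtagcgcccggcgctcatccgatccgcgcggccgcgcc
Col4a6: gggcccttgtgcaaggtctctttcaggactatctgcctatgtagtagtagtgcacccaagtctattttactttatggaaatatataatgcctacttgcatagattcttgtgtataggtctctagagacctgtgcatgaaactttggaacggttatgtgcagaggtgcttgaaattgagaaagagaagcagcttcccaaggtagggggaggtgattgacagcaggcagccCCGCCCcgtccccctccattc
Col24a1: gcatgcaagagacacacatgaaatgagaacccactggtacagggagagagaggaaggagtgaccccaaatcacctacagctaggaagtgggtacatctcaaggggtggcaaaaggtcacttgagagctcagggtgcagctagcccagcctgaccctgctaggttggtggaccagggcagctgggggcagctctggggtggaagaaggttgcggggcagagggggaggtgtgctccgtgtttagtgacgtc
Col7a1: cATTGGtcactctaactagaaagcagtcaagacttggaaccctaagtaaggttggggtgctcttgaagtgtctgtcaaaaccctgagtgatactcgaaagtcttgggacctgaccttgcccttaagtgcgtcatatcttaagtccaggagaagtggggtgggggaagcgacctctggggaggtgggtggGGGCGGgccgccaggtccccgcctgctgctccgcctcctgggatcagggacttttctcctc
TATAAA occurred in the Col3a1 and Col13a1 stretches, against 12.4% of all 32851 windows of that length. GGGCGG occurred in those of Col4a6 and Col7a1, against 32.7% of all windows, and CCAAT in that of Col7a1, against 33.8%. The Col24a1 stretch held none of the 3. Of the 44 collagens 35 matched the promoter table, with 38 windows. GGGCGG was in 22 of these (57.9%), CCAAT in 13 (34.2%) and TATAAA in 5 (13.2%).

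Fibroblasts were the main collagen source per cell, and pericytes and endothelial cells followed. Collagens made up 10.7% of all UMIs of fibroblasts in library 1 and 11.0% in library 2, or 107207 CPM (95% interval 106811 to 107605) and 109913 CPM (109558 to 110269). Pericytes stood at 65538 and 62042 CPM and blood endothelial cells at 22986 and 23420 CPM. Every other class stood between 2317 and 5874 CPM. A fibroblast held 779 and 817 collagen UMIs on average, and an epithelial tumor cell 47.2 and 42.7.

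Of all collagen UMIs, most lay outside the fibroblasts, which were 3.24% and 4.16% of the cells. Epithelial tumor cells, 38.5% and 31.3% of the cells, held 25.2% and 16.8% of the collagen UMIs. Unnamed cells, 46.0% and 48.6% of the cells, held 31.9% and 33.8%. The fibroblast share was 34.9% in library 1 (280445 of 803325 UMIs, Clopper-Pearson 95% interval 34.8 to 35.0) and 42.6% in library 2 (366712 of 860573, 42.5 to 42.7). The structural groups differed in this. Fibroblasts held 59.7% and 67.6% of fibrillar UMIs and 63.0% and 61.8% of those of the hexagonal network. They held 33.9% and 31.1% of FACIT UMIs, 18.6% and 24.0% of beaded-filament UMIs and 10.0% and 9.75% of basement membrane network UMIs. For the anchoring fibril gene Col7a1 the share was 3.56% and 2.66%, and for the multiplexins 4.10% and 4.22%. Blood endothelial cells, which were 1.42% and 1.21% of the cells, held 17.5% and 13.5% of basement membrane network UMIs and 56.5% and 66.1% of transmembrane collagen UMIs.

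**Figure D1:**
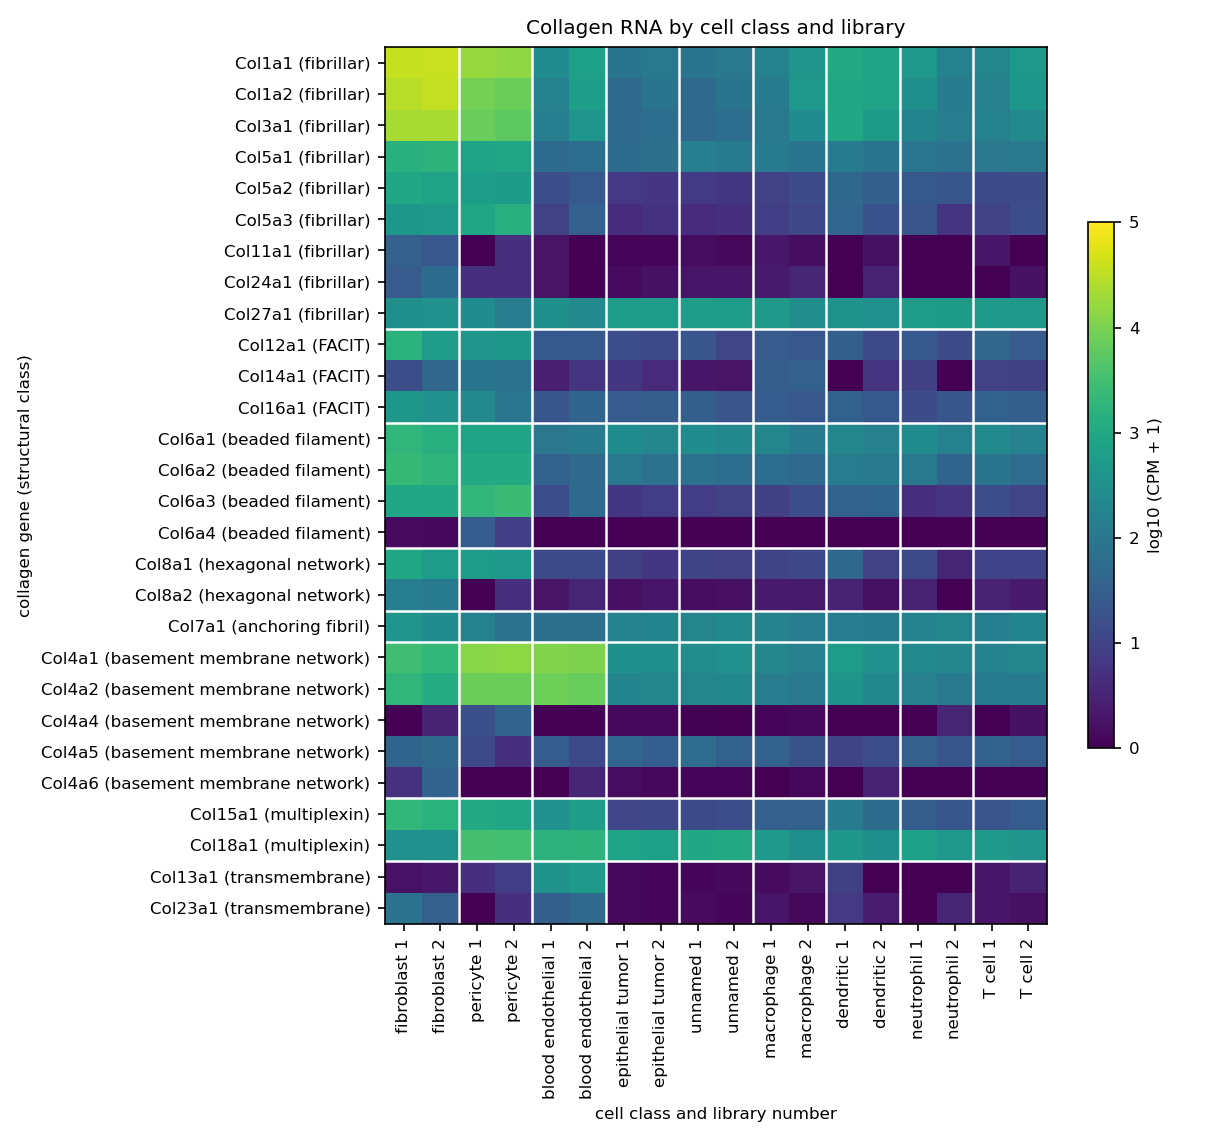
Level of the 28 collagens that passed the level minimum, as log10 of CPM plus 1, in 9 cell classes with 1 column per library; white lines part the classes and the structural groups. Fibroblast and pericyte columns are brightest for Col1a1 (36640 and 37480 CPM in fibroblasts), Col1a2, Col3a1, Col5a1, Col5a2 and Col5a3. Of the other fibrillar genes, Col11a1 and Col24a1 are highest in fibroblasts and Col27a1 in unnamed cells. Endothelial and pericyte columns are brightest for Col4a1 and Col4a2. Col13a1 is bright in endothelial columns and at 7.81 CPM or less in every other column.

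Among the 7 classes with at least 100 cells in each library, 18 of the 26 collagens were highest in fibroblasts in both libraries. They were the fibrillar Col1a1, Col1a2, Col3a1, Col5a1, Col5a2, Col5a3, Col11a1 and Col24a1, the FACITs Col12a1 and Col16a1, Col6a1, Col6a2 and Col6a3, the hexagonal network chains Col8a1 and Col8a2, Col7a1, Col15a1 and Col4a6. Of these, Col4a6, Col8a1, Col8a2, Col11a1 and Col24a1 reached 20 CPM in fibroblasts only among the 7 classes, so the level minimum itself fixed their place, and it did so for Col13a1 in endothelial cells. Endothelial cells were highest for Col4a1, Col4a2, Col13a1 and Col18a1, and unnamed cells for Col27a1. The highest class differed between the libraries for Col4a5, Col14a1 and Col23a1. How many of all genes were highest in each class was not computed, so these counts have no background. With classes of 40 cells, which adds pericytes and dendritic cells, 28 collagens passed; fibroblasts were highest for 16 and pericytes for 7 (Col4a1, Col4a4, Col5a3, Col6a3, Col6a4, Col14a1 and Col18a1). The 3 highest pericytes held 21.8% to 85.7% of the UMIs of each of those 7 in library 1. The pericyte values thus rest on few cells. Col4a4 and Col6a4 passed the minimum only through their pericyte level, which fixed their place, and Col6a4 had 7 and 2 UMIs there.

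The genes of type I and type III collagen, the bulk of stromal fibrils, stood far higher in fibroblasts and pericytes than in the other classes. Col1a1, the main chain of type I, stood at 36640 and 37480 CPM in fibroblasts, 16575 and 14735 CPM in pericytes, 272 and 702 CPM in endothelial cells and 87.8 and 106 CPM in epithelial tumor cells. Its partner Col1a2 stood at 29000 and 35400 CPM in fibroblasts and 9119 and 7696 CPM in pericytes. Col3a1, which forms type III collagen of pliable tissue, stood at 22084 and 22196 CPM in fibroblasts and 7159 and 5436 CPM in pericytes. In all 3 the intervals of fibroblasts and pericytes lay apart in both libraries. Classes outside the stroma carried a low level of the same genes. The Col3a1 share of Col3a1 plus Col1a1 UMIs was 37.6% and 37.7% in epithelial tumor cells and 37.6% and 37.2% in fibroblasts, while it was 30.2% and 26.9% in pericytes. In epithelial tumor cells the fibroblast markers stood at a median of 0.470% and 0.684% of their fibroblast level over 15 and 16 markers. Col1a1 there stood at 0.240% and 0.283% of its own fibroblast level. The Col1a2 share of Col1a2 plus Col1a1 UMIs was 37.5% (36.6 to 38.4) and 43.6% (42.6 to 44.5) in epithelial tumor cells, below the 44.2% (43.9 to 44.4) and 48.6% (48.4 to 48.8) of fibroblasts. Whether these UMIs came from the cells themselves or from free fibroblast RNA was not tested.

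Type V chains, which control the width of fibrils, were not alike. Col5a1, the chain shared by all type V molecules, stood at 1501 and 1720 CPM in fibroblasts and 803 and 908 CPM in pericytes, and also at 137 and 113 CPM in unnamed cells. Col5a2 was at 979 and 765 CPM in fibroblasts and 6.21 and 5.39 CPM in unnamed cells. Col5a3 was the 1 fibrillar gene that was highest in pericytes in both libraries, 877 (766 to 999) and 1375 CPM (1238 to 1523), against 434 and 474 CPM in fibroblasts. Its share of Col5a3 plus Col5a1 UMIs was 52.2% and 60.2% in pericytes, 22.4% and 21.6% in fibroblasts and 2.37% and 3.27% in unnamed cells. The minor fibrillar genes Col11a1 (32.9 and 22.2 CPM) and Col24a1 (26.8 and 55.1 CPM) were seen in fibroblasts and stood at 7.39 CPM or less in every other class.

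Type VI chains form beaded filaments around cells, and the chains Col6a1, Col6a2 and Col6a3 are known to assemble together. In fibroblasts they stood at 1957 and 1451, 2258 and 1808, and 999 and 941 CPM. In epithelial tumor cells Col6a1 stood at 264 and 207 CPM and Col6a3 at 5.47 and 7.18 CPM. The Col6a3 share of Col6a3 plus Col6a1 UMIs was thus 2.03% and 3.35% in epithelial tumor cells, 33.8% and 39.3% in fibroblasts and 70.0% and 74.9% in pericytes. The Col6a2 share of Col6a2 plus Col6a1 UMIs was 53.6% to 57.9% in fibroblasts and pericytes, 22.1% to 31.5% in endothelial, epithelial tumor and unnamed cells, and 39.6% and 41.1% in dendritic cells. The chains Col6a4, Col6a5 and Col6a6 had 8 and 5, 20 and 12, and 29 and 8 UMIs in all. Col6a6 had 16 of its 29 UMIs of library 1 in the 16 islet cells, all in 3 cells.

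**Figure D2:**
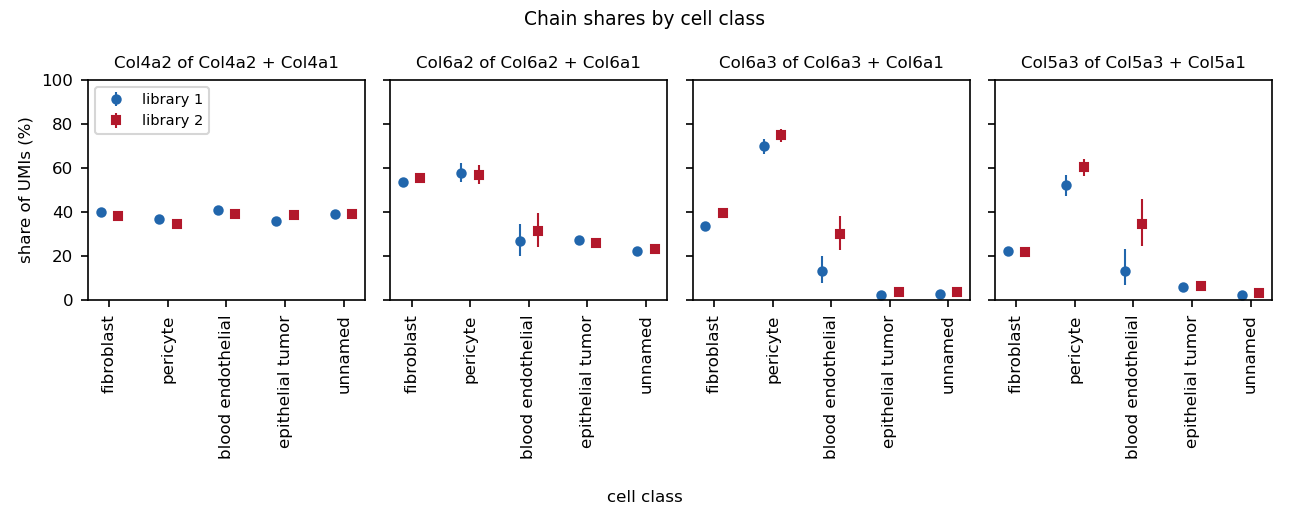
Share of the first-named chain among the UMIs of 2 chains (percent), in 5 cell classes, with circles for library 1, squares for library 2 and bars for Clopper-Pearson 95% intervals. The Col4a2 share lies between 34.4% and 40.9% in all 5 classes, while the Col6a3 share runs from 2.03% in epithelial tumor cells to 74.9% in pericytes.

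Of the basement membrane chains, Col4a1 and Col4a2 stood higher in endothelial cells and pericytes than in the other classes. Col4a1 stood at 11417 (11223 to 11612) and 10987 CPM (10769 to 11209) in endothelial cells and 12732 (12299 to 13176) and 14063 CPM (13617 to 14519) in pericytes. Fibroblasts stood at 2926 and 2059 CPM and epithelial tumor cells at 325 and 308 CPM. Col4a2, the partner that completes the common type IV molecule, stood at 7463 and 7386 CPM in pericytes and 7916 and 6997 CPM in endothelial cells, with overlapping intervals in both libraries, and at 1958 and 1268 CPM in fibroblasts. The genes sit head to head on chromosome 8, with annotated starts at 11312826 for Col4a1 on the minus strand and 11312805 for Col4a2 on the plus strand, so that the transcripts overlap by 22 bases. The Col4a2 share of Col4a1 plus Col4a2 UMIs stayed between 34.4% and 40.9% over the 5 classes of the plot of chain shares and both libraries.

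The other type IV pairs, also head to head, had few UMIs in at least 1 chain. Col4a4 and Col4a3, whose starts lie 71 bases apart on chromosome 1, had 35 and 40 and 17 and 11 UMIs in all. Of these, 4 and 10 Col4a4 UMIs lay in pericytes, a level of 15.6 and 37.4 CPM. Col4a6 and Col4a5 lie on chromosome X with 1308 bases between their starts. Col4a5 had UMIs in all 9 classes of the heatmap, with 60.8 and 35.2 CPM in unnamed cells and 39.0 and 53.4 CPM in fibroblasts. Col4a6 was at 4.21 and 36.9 CPM in fibroblasts and at 2.29 CPM or less in every other class. Its share of Col4a6 plus Col4a5 UMIs in fibroblasts was 9.73% (4.96 to 16.8) and 40.9% (35.3 to 46.7), against 1.08% and 0.879% in epithelial tumor cells.

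Multiplexins sit in or beside basement membranes. Col18a1, the source of the angiogenesis inhibitor endostatin, stood at 3344 and 3235 CPM in pericytes, 1605 and 1737 CPM in endothelial cells, 955 and 1102 CPM in unnamed cells, 781 and 673 CPM in epithelial tumor cells and 344 and 344 CPM in fibroblasts. Col15a1 had another order, with 2034 and 1561 CPM in fibroblasts, 1095 and 852 CPM in pericytes, 332 and 615 CPM in endothelial cells and 9.86 and 11.0 CPM in epithelial tumor cells. Transmembrane Col13a1, an adhesion protein of the cell surface, was an endothelial gene here. It stood at 373 (339 to 410) and 500 CPM (455 to 550) in endothelial cells. A UMI was found in 53.2% and 64.9% of endothelial cells (median depth 3731 and 4244 UMIs) and in 0.556% and 0.891% of fibroblasts (4687 and 4681 UMIs). Col23a1, of the same group, stood at 78.0 and 33.0 CPM in fibroblasts and 31.8 and 53.7 CPM in endothelial cells, where 3 cells held 67.6% and 57.4% of its UMIs.

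Of the 9 FACITs 3 passed the level minimum, and among the larger classes Col12a1 and Col16a1 were highest in fibroblasts in both libraries. Col12a1, which decorates fibrils, stood at 1553 and 553 CPM in fibroblasts and 409 and 441 CPM in pericytes. The FACIT Col16a1 was at 448 and 331 CPM in fibroblasts and 226 and 89.7 CPM in pericytes. Col14a1 stood at 85.7 (53.7 to 130) and 71.0 CPM (42.7 to 111) in pericytes, 14.9 and 43.8 CPM in fibroblasts and 28.8 and 33.9 CPM in macrophages. The macrophage value came mainly from 1 of the 2 macrophage clusters, whose leading genes include Lyz2, Mpeg1 and C1qc, while Mmp9, Ctsk and Msr1 are among those of the other. There Col14a1 stood at 64.8 (53.5 to 77.9) and 50.1 CPM (41.1 to 60.5), with a UMI in 84 of 410 and 76 of 509 cells, against 11.0 and 12.0 CPM in the other cluster. Col1a1 had the same order there, at 191 and 524 CPM in the first cluster and 140 and 257 CPM in the other, and the part of fibroblast RNA in the Col14a1 level was not tested.

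Of the 3 hexagonal network chains, Col8a1 and Col8a2 passed the level minimum, and Col10a1 did not. Col8a1, a chain of vessel and wound matrix, stood at 987 and 557 CPM in fibroblasts and 577 and 467 CPM in pericytes. Its partner Col8a2 stood at 135 and 115 CPM in fibroblasts and had 0 and 1 UMIs in pericytes.

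The fibrillar Col27a1, a gene best known from cartilage, and Col7a1, which anchors epithelia to the tissue beneath, had a UMI in most epithelial tumor cells, 90.5% and 91.3% for Col27a1 and 66.6% and 68.3% for Col7a1 (median depth 11572 and 11014 UMIs). Col27a1 was at 579 and 549 CPM in epithelial tumor cells and 605 and 578 CPM in unnamed cells, against 309 and 331 CPM in fibroblasts. Col7a1 was at 155 and 177 CPM in epithelial tumor cells, 189 and 240 CPM in unnamed cells and 400 and 267 CPM in fibroblasts. Immune classes carried both genes, for example Col27a1 at 552 and 522 CPM in neutrophils and Col7a1 at 138 and 182 CPM in T cells. In macrophages, T cells and neutrophils the epithelial markers stood at a median of 38.8% to 64.5% of their level in epithelial tumor and unnamed cells pooled. Krt8 stood between 804 and 1067 CPM in the same immune classes. The part of tumor-cell RNA in these collagen levels was not tested.

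The tumor-like and unnamed clusters differed from each other in these genes. Over the 17 such clusters that had 10 or more cells per library, Col7a1 ran from 46.3 to 325 CPM in library 1 and from 54.1 to 421 CPM in library 2, with the same lowest and the same highest cluster. Both are unnamed clusters: the highest had a median of 4303 UMIs per cell and leading genes such as Ebf4 and Pcdh9, and the lowest had 2574 UMIs, with immunoglobulin and Tff1 genes leading. The same clusters were lowest and highest for Col27a1, at 144 and 1070 CPM in library 1 and 153 and 1059 CPM in library 2. Col18a1 had its lowest level where Col7a1 had its highest, 506 and 465 CPM, and reached 1368 and 1417 CPM in an unnamed cluster led by Ggct and Mmp10. Col6a1 was highest in an epithelial tumor cluster led by Muc5ac and Muc5b, at 443 and 551 CPM, and there Col6a2 was highest as well, at 201 and 203 CPM. That cluster held 347 and 20 cells. Between the highest and lowest cluster Col1a1 varied 2.09-fold in library 1 and 3.12-fold in library 2, and Col3a1 2.13-fold and 2.29-fold. Col7a1 varied more, 7.03-fold and 7.79-fold, as did Col27a1, 7.44-fold and 6.94-fold. The smaller range was not particular to Col1a1 and Col3a1. Col4a2 varied 2.27-fold and 3.15-fold, and Col18a1 2.70-fold and 3.05-fold.

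**Figure D3:**
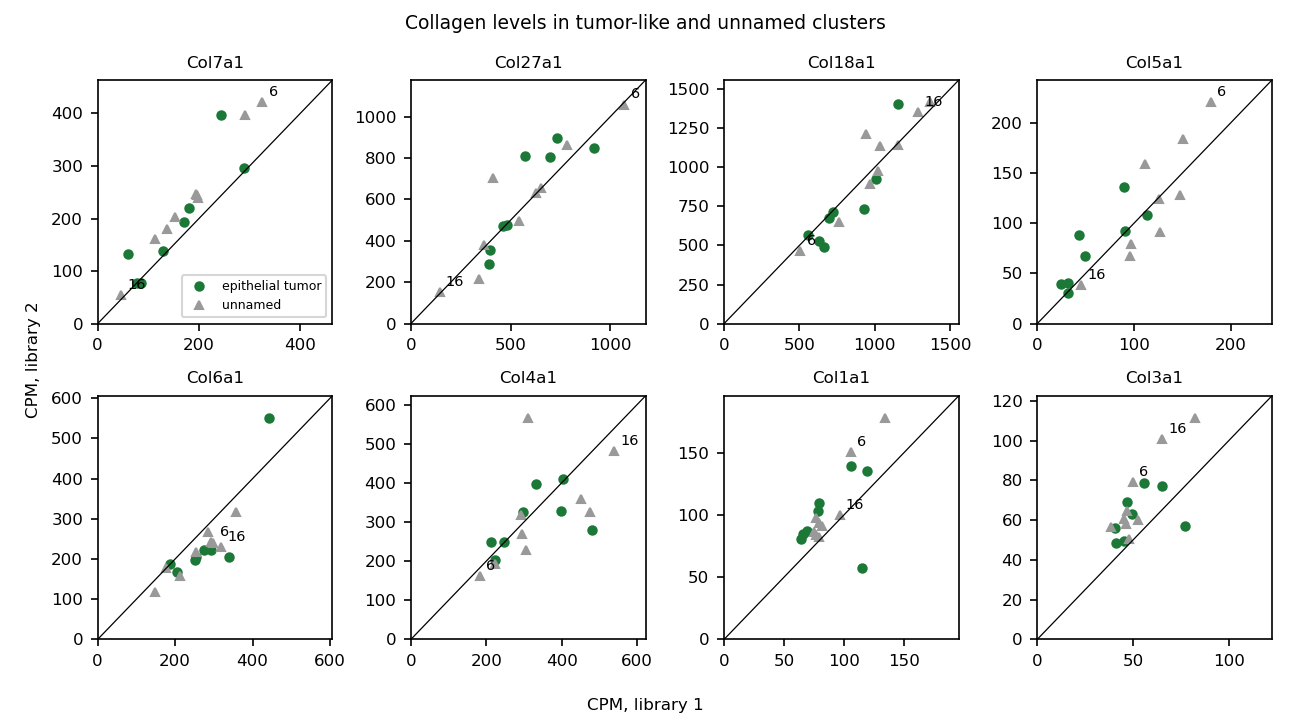
CPM in library 1 (horizontal) and library 2 (vertical) for 8 collagens, with 1 point per cluster, circles for epithelial tumor clusters, triangles for unnamed clusters and a line of equal levels. Clusters 6 and 16 carry their numbers and are the highest and lowest for Col7a1 (325 and 421 CPM, and 46.3 and 54.1 CPM).

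In fibroblasts most collagens stood at like levels in both libraries, and 7 of 25 passed the line for a difference. A gene was counted as different when it reached 20 CPM in 1 library, its log2 ratio (with 1 CPM added) was at least 1.5-fold either way and its Poisson intervals did not overlap. Of the 25 collagens at 20 CPM, 3 were higher in library 2, against 3.09% of the 8674 genes tested, and 4 were lower, against 3.67%. A gene that reached 20 CPM in 1 library alone could pass only as higher in that library. Col4a6 and Col14a1 reached it only in library 2, so their direction was fixed by the minimum. The median log2 ratio of the 25 was -0.23, that of all genes tested 0.03, and that of the 9 fibrillar collagens among them 0.10. Uneven counts between cells are not in the Poisson intervals, so these shares are a description of 2 libraries. With each cell thinned to 1000 UMIs 1 collagen, Col4a6, was higher. With automatic doublet thresholds, which marked 2549 cells of library 1 and 1 of library 2, 16 were lower. For these and all other alternatives the share of all genes past the line was not computed, so such counts have no background.

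For the main fibrillar genes the ratios over all fibroblasts were small. Col3a1 had intervals that overlapped (22084 and 22196 CPM, log2 0.01). Col1a1 (log2 0.03) and Col1a2 (0.29) had intervals apart at a small ratio. Within the 5 fibroblast sub-clusters compared further on, the log2 ratio ran from 0.23 to 0.80 for Col1a1, from 0.28 to 0.88 for Col1a2 and from 0.04 to 0.87 for Col3a1.

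Col12a1 was the collagen with the lowest ratio in fibroblasts. It stood at 1553 (1506 to 1602) and 553 CPM (528 to 579), a log2 ratio of -1.49. Col23a1 followed at 78.0 and 33.0 CPM (-1.22), then Col8a1 at 987 and 557 CPM (-0.82), and Col4a2 at 1958 and 1268 CPM (-0.63). Just inside the line lay Col7a1, at 400 and 267 CPM (-0.58), and Col4a1, at 2926 and 2059 CPM (-0.51).

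Among the higher ones Col4a6 stood at 4.21 (2.10 to 7.52) and 36.9 CPM (30.6 to 44.0), a log2 ratio of 2.86 that rests on 11 and 123 UMIs in 9 and 63 cells. Col14a1 stood at 14.9 (10.6 to 20.4) and 43.8 CPM (36.9 to 51.5), log2 1.49. It had a UMI in 28 and 53 fibroblasts, and 3 cells held 28.2% and 37.7% of its UMIs. Col24a1, a fibrillar collagen of low level, stood at 26.8 (20.9 to 33.8) and 55.1 CPM (47.5 to 63.7), log2 1.02, in 42 and 102 cells.

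**Figure D4:**
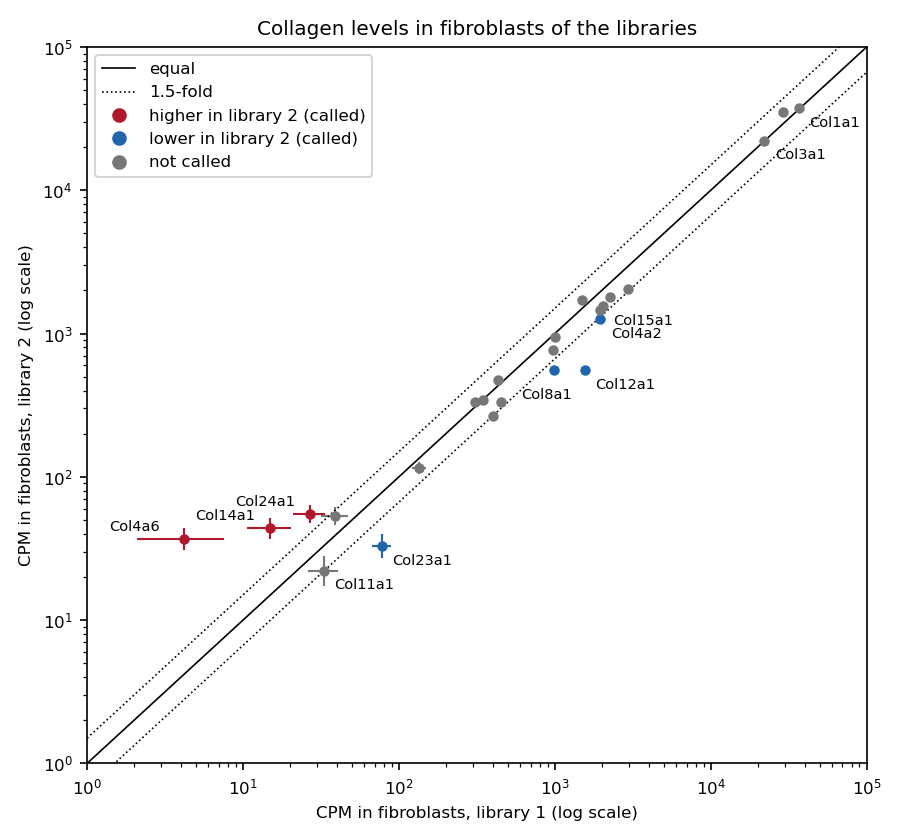
CPM of the 25 tested collagens in fibroblasts of library 1 (horizontal) and library 2 (vertical), both on log scales, with Poisson 95% intervals; the solid line marks equal levels and dotted lines a 1.5-fold ratio. Col4a6, Col14a1 and Col24a1 lie above the upper dotted line and Col4a2, Col8a1, Col12a1 and Col23a1 below the lower one, while Col1a1 and Col3a1 lie on the line of equal levels.

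The fibroblast class fell into 6 sub-clusters, made without the collagens, and Col1a1 differed 8.15-fold and 5.70-fold between the highest and the lowest of the 5 compared. Sub-cluster 5 (53 and 45 cells), with Lrrc15, Fmod and Actg2 among its leading genes, had the highest summed fibrillar level, 185831 and 230939 CPM. Sub-cluster 4 (47 and 61 cells) had the lowest, 24090 and 42388 CPM, a ratio of 7.71 and 5.45. Epithelial markers summed to 4129 and 4468 CPM in sub-cluster 4 and to between 1293 and 2832 CPM in sub-clusters 1, 2, 3 and 5, and their part in its low collagen level was not tested. Without it the ratio of highest to lowest was 3.62 and 3.65. Sub-cluster 6 (8 and 11 cells) carried macrophage genes and was not compared. Sub-cluster 2 (130 and 80 cells), led by Crabp1 and Igf2, held 72.2% and 41.0% of the collagen UMIs of fibroblasts, and its cells were the deepest but for sub-cluster 4 in library 1, at 9471 and 10400 UMIs.

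Of the 25 collagens 13 peaked in sub-cluster 5, whichever library was read, among them Col1a1, at 74657 and 90971 CPM, and Col8a1. Its cells were the shallowest, with a median of 1731 and 1543 UMIs. In library 2 the intervals of sub-clusters 5 and 2 overlapped for Col5a2, Col6a1, Col6a2, Col6a3, Col8a1, Col15a1, Col16a1 and Col23a1. In library 1 they overlapped for Col16a1 and Col23a1. In sub-cluster 4, 14 of the 25 were lowest in both libraries. The share of all genes that peaked or were lowest in each sub-cluster is not given, so these counts have no background. Other collagens peaked elsewhere. Col7a1 was highest in sub-cluster 2, at 504 (468 to 541) and 553 CPM (505 to 604), and lowest in sub-cluster 3, at 50.8 and 57.7 CPM. Col5a3 was highest in sub-cluster 1, at 845 (729 to 973) and 680 CPM (590 to 781). In library 2 that interval overlapped the one of sub-cluster 2 (557 to 660). Sub-cluster 1 had a median of 1824 and 1805 UMIs, and its leading genes include Igkc and Jchain. Col4a6, Col24a1 and Col4a5 peaked in sub-cluster 3 (22 and 116 cells), whose leading genes are Calca, Slpi and Saa3. There Col4a6 stood at 65.4 (29.9 to 124) and 103 CPM (84.0 to 124), and in library 1 its level in sub-clusters 1, 2, 4 and 5 was 4.42 CPM or less. Col24a1 stood there at 131 (77.5 to 207) and 116 CPM (96.4 to 139). Col4a5 stood there at 87.1 (45.0 to 152) and 98.8 CPM (80.5 to 120), and in each library its interval overlapped that of another sub-cluster. In library 1, 9 of the 11 fibroblast Col4a6 UMIs lay in sub-cluster 3, and in library 2 105 of the 123. Col4a6 thus reached the 20 CPM minimum mainly through sub-cluster 3 of library 2, which helped to fix its peak there. Col18a1 and Col27a1 were highest in sub-cluster 4, the one with the most epithelial marker RNA.

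**Figure D5:**
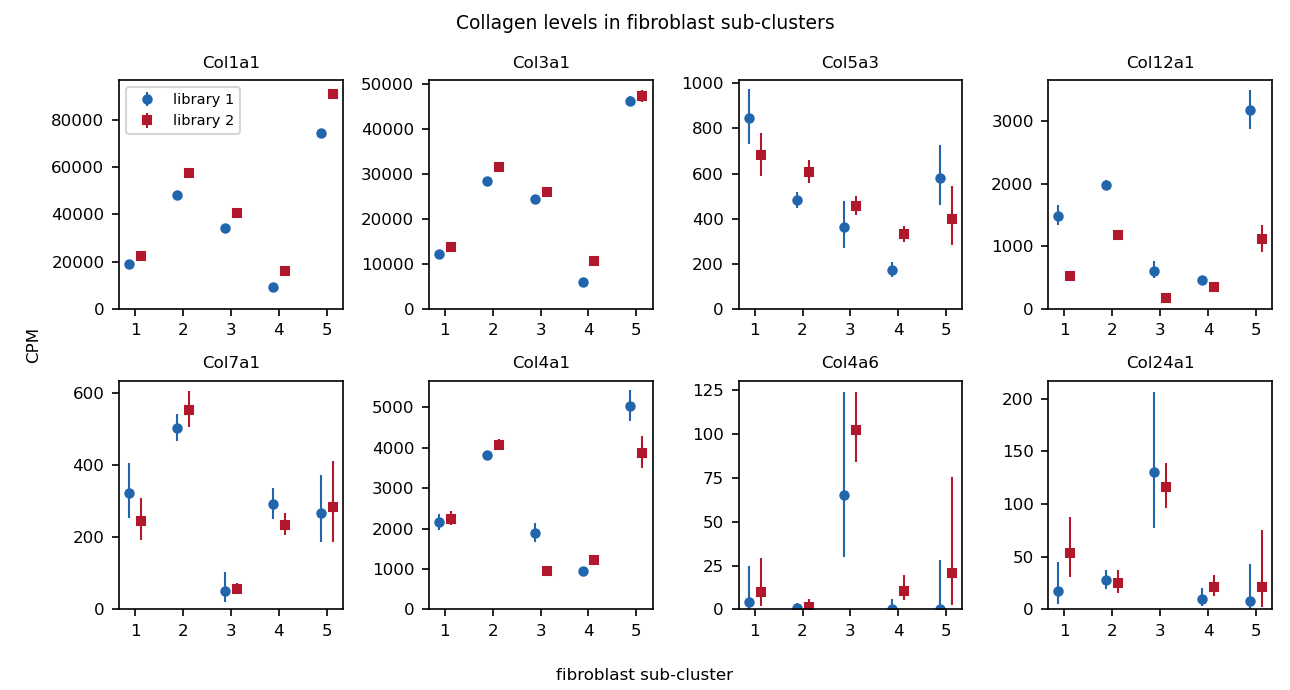
CPM of 8 collagens in fibroblast sub-clusters 1 to 5, with circles for library 1, squares for library 2 and bars for Poisson 95% intervals; each panel starts at 0. Col1a1 and Col3a1 peak in sub-cluster 5, Col7a1 in sub-cluster 2 (504 and 553 CPM) and Col4a6 and Col24a1 in sub-cluster 3, and Col12a1 is lower in library 2 in all 5 sub-clusters.

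Sub-cluster 3 made up 6.11% of fibroblasts in library 1 (3.87 to 9.11) and 25.8% in library 2 (21.8 to 30.1), and sub-cluster 2 made up 36.1% and 17.8%. The library ratios moved with these shares to differing degrees. When the sub-clusters of library 2 were weighted to the shares of library 1, the log2 ratio was 1.36 for Col4a6, 0.27 for Col24a1, -0.10 for Col4a2, -0.37 for Col8a1, -0.65 for Col23a1, -0.91 for Col12a1 and 2.15 for Col14a1. For Col4a1 it was 0.00 and for Col7a1 -0.01. Col12a1 stood lower in library 2 within all 5 sub-clusters, with intervals apart, by log2 -1.52, -0.76, -1.79 and -1.51 in sub-clusters 1, 2, 3 and 5 and by -0.37 (452 and 348 CPM) in sub-cluster 4. Col14a1 stood at 17.2 and 110 CPM (log2 2.60) in sub-cluster 2. In sub-cluster 4 Col1a1 stood at 9157 and 15947 CPM.

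Genes that make, cross-link and read collagen were read in the same fibroblasts. Of 60 such genes in 6 lists 49 were tested, and 1 was higher and 5 lower in library 2, against 3.09% and 3.67% of all genes tested. Among 18 genes of hydroxylation, glycosylation and folding, 16 were tested and 1 was lower. Serpinh1, the collagen chaperone, stood at 3264 and 3259 CPM. Among 10 genes of export and trimming, 7 were tested and 1 was higher. That was the procollagen protease Adamts14, at 23.7 and 48.3 CPM. Bmp1, which removes the C-terminal propeptide, stood at 1354 and 1716 CPM. Of the 5 cross-linking enzymes 1 was lower, Loxl1, at 735 and 462 CPM (log2 -0.67). Among 9 proteoglycans and partners 7 were tested and 2 were lower, Postn at 910 and 474 CPM (-0.94) and Lum at 682 and 357 CPM (-0.93). Sparc, a collagen-binding protein of the same list, stood at 10849 and 11690 CPM. None of the 9 receptors tested passed the line, the collagen uptake receptor Mrc2 standing at 810 and 615 CPM. Of the 5 degradation genes tested 1 was lower, and the gelatinase Mmp2 stood at 1504 and 1141 CPM. Of the 60, 55 reached 20 CPM in a class, and 33 were highest in fibroblasts in both libraries among the 7 larger classes. The 33 include Dcn, Lum, Bgn, Postn and Mmp2, which are markers that named the fibroblast class, so the naming helped to fix their place. The share of all genes that were highest in fibroblasts was not computed, so the count of 33 has no background.

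Col1a1 and Col1a2 passed the line together in endothelial cells, T cells, macrophages and neutrophils, and Col1a2 also in epithelial tumor and unnamed cells. In endothelial cells 6 of 20 tested collagens were higher in library 2 and none lower, against 5.01% of all genes either way, and the median log2 ratio of the 20 was 0.49 against 0.07 for all genes. They were Col1a1, Col1a2, Col3a1, Col5a3, Col6a3 and Col15a1. In these cells Col5a3 and Col6a3 reached 20 CPM only in library 2, so they could pass only as higher. Col1a1 stood at 272 and 702 CPM, with 54.3% and 73.6% of its UMIs in 3 cells, and the fibroblast gene Dcn at 2.58 and 12.6 CPM. Without the 3 highest cells 4 of the 6 stayed past the line, Col1a1 at log2 0.66 and Col15a1 at 1.09. Col15a1 stood at 332 (299 to 367) and 615 CPM (564 to 669), with 27.5% and 15.8% of its UMIs in 3 cells. The endothelial genes Col4a1 (log2 -0.06), Col18a1 (0.11) and Col13a1 (0.42) did not pass it.

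Macrophages had 7 of 16 tested collagens past the line, 3 higher and 4 lower, against 12.5% of all genes. Col1a1 (157 and 410 CPM), Col1a2 (110 and 470 CPM) and Col3a1 (104 and 258 CPM) were higher, while Col4a5, Col6a1, Col18a1 and Col27a1 were lower. In macrophages Col4a5 reached 20 CPM only in library 1, so it could pass only as lower. The macrophage cluster led by Lyz2, Mpeg1 and C1qc held 410 and 509 cells and the other 383 and 278, and the levels of the lower genes differed between the clusters. Within the other cluster Col18a1 stood at 619 and 546 CPM and Col27a1 at 670 and 548 CPM, and within the first at 232 and 143 CPM and 190 and 115 CPM. With no doublet removal 4 passed, Col1a1, Col1a2, Col3a1 and Col4a5. Fibroblast markers stood at a median of 0.836% and 1.49% of their fibroblast level in macrophages. Epithelial markers stood in macrophages at a median of 42.9% and 38.8% of their level in epithelial tumor and unnamed cells pooled. The part of fibroblast and tumor RNA in these values was not tested.

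T cells had 2 of 15 past the line, against 6.95% of genes, Col1a1 (187 and 457 CPM) and Col1a2 (149 and 425 CPM), both higher. Neutrophils had 4 of 16, all lower, against 5.48%: Col1a1, Col1a2, Col6a1 and Col6a2. Without the 3 highest cells the 3 past the line there were Col6a1, Col6a2 and Col18a1, and T cells had 4. Dendritic cells had 6 of 18, all lower, against 4.4%. The hexagonal network genes together stood at 50.8 and 8.85 CPM in dendritic cells. The 1 of them among the 6 thus reached 20 CPM only in library 1 and could pass only as lower. The Col1a1 level of dendritic cells, 1148 and 791 CPM, was uneven over clusters. It was 2983 CPM in 1 cluster of 43 cells in library 1 and 4160 CPM in another of 34 cells in library 2. In the cluster of Clec9a-positive cells it was 98.5 and 128 CPM. Pericytes had 3 of 21, against 2.06%: Col5a3 was higher (log2 0.65) and Col16a1 (-1.32) and Col27a1 (-1.12) were lower. Epithelial tumor cells had 1 of 13, against 1.95%, Col1a2 at 52.7 and 81.9 CPM, and 0 with no doublet removal. Unnamed cells had 4 of 14, against 4.43%, with Col1a2 higher and Col4a5, Col12a1 and Col16a1 lower. All FACITs together stood at 36.0 CPM in unnamed cells of library 2. At least 1 of Col12a1 and Col16a1 thus reached 20 CPM only in library 1 and could pass only as lower.

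The other 16 collagens reached 20 CPM in no class of 40 or more cells. Col2a1, the cartilage collagen, had 15 and 17 UMIs in all, and Col10a1, of growth plates, 16 and 16. Col9a1 had 0 and 1, Col19a1 0 and 2, Col22a1 2 and 1 and Col26a1 2 and 1. Such counts were too few for a comparison at this depth. Col11a2 (1404 and 810 UMIs), Col20a1 (892 and 473) and Col9a3 (857 and 712) had more, but stood at 18.7 CPM or less in each class. Col17a1, which anchors basal epithelial cells, had 15 and 34, and Col25a1 37 and 9.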

How the data were processed

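The authors deposited 1 matrix of UMI counts per gene and cell, and the submitters' processing notes name Cell Ranger 8.0.0 and the build mm10; further settings are not given in the sources used here. Cells with at least 500 UMIs, at least 200 genes and at most 20% mitochondrial UMIs were kept (5 and 23 barcodes were removed). The cells with the highest Scrublet scores were removed at 0.8% per 1000 cells (1217 and 1137 cells). Without the collagens, 3000 variable genes, 50 principal components and 15 neighbors gave 30 Leiden clusters at resolution 1; fibroblasts were clustered again at 0.5. A cluster was named from at least 3 markers at 20 CPM and 2-fold over the median cluster, a rule set after the clusters were seen; a cluster with more markers of another class among its 10 leading genes, or with none of its own there and a median depth more than 3-fold below that of its library, stayed unnamed. Each class was summed within a library, and a gene's level is its CPM in that sum. Intervals are exact Poisson or Clopper-Pearson at 95%.

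With 1 library per treatment no test was made. The call rule (20 CPM, 1.5-fold, intervals apart) was run on Poisson counts simulated from the fibroblast sums. Such counts hold no unevenness between cells or animals, so that run could not show calls that arise from it. The call rule was planned for classes of 100 cells, and pericytes and dendritic cells fall short of that. Every collagen at 20 CPM in a class of 100 cells is described, with counts for the rest; of other pathway genes, the member of each list with the highest fibroblast level and the called genes with the largest ratios are named. The members and lists were chosen with earlier results of these data known. Alternatives changed the scaling, added value, filters, doublet step, resolution and cells used. Tools were Python 3.11.15, scanpy 1.11.5, leidenalg 0.10.2, scipy 1.17.1, R 4.3.3, edgeR 4.0.16 (TMM) and DESeq2 1.42.0 (size factors).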

Additional observations from a re-analysis of the deposited data

Results flagged for a closer look

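Col1a1 and Col1a2, the chains of type I collagen, had library ratios in other classes that differed from those in fibroblasts (log2 0.03 and 0.29), or that passed the line where fibroblasts did not; the difference was not tested. For Col1a1 the log2 ratio of library 2 over library 1 was 1.28 in T cells, 1.36 in endothelial cells, 1.38 in macrophages and -1.55 in neutrophils. For Col1a2 it was 1.51 in T cells, 1.97 in endothelial cells, 0.63 in epithelial tumor cells, 2.08 in macrophages, -1.34 in neutrophils and 0.72 in unnamed cells. The 3 highest cells held between 53.6% and 73.6% of the Col1a1 UMIs in T cells and endothelial cells. Without the 3 highest cells of each library the neutrophil ratios were -0.55 for Col1a1 and -0.42 for Col1a2, neither past the line, while those of Col1a1 were 0.84 in T cells, 0.66 in endothelial cells and 1.11 in macrophages.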

How the results depend on the processing

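The collagens past the line in fibroblasts, Col4a6, Col14a1, Col24a1, Col4a2, Col8a1, Col12a1 and Col23a1, kept their sign in 16 of 16 alternatives, but not all stayed past the line. Other added values and no filter on low levels are among the 16 and cannot change a sign. Under the alternatives the share of all genes past the line was not computed, so the counts of collagens past it have no background. With cells thinned to 1000 UMIs 1 collagen was higher (Col4a6). With automatic doublet thresholds, which marked 2549 cells of library 1 and 1 of library 2, 16 were lower, the median log2 ratio of the collagens was -0.84 and that of the fibrillar ones -0.59. That median of the collagens was -0.0436 with no filter on low levels, -0.0927 with thinned cells, -0.0667 with no doublet removal (fibrillar 0.34) and -0.0214 with library 2 weighted to the sub-cluster shares of library 1. The fibroblast share of collagen UMIs was 35.1% and 43.1% with collagens kept for clustering and 37.6% and 42.8% with no doublet removal. In library 1 it was 36.0% with automatic thresholds and 34.6% with at least 1000 UMIs. Without the 3 highest cells 4 collagens passed the line in T cells, and with no doublet removal 0 did in epithelial tumor cells and 4 in macrophages. The ratio of highest to lowest fibrillar level over sub-clusters was 6.01 and 3.29 at resolution 0.3, 6.96 and 5.61 with thinned cells and 3.62 and 3.65 without sub-cluster 4. The automatic thresholds for the UMI share, the weighting, classes of 40 cells and the fits without sub-clusters 4 or 6 were chosen after seeing the data. The causes were not tested. Of the values of the main comparisons 76 moved by less than their spread or 1.5 times and 24 by more, and of the single-gene values 333 moved by less than their spread and 157 by more. No paired analysis was possible because each treatment has 1 library, and no replicate could be left out.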
